A study of Mus musculus with 6 samples.

Results

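The genes described here encode the mouse colony-stimulating factors, interleukin-34 and the receptors of both. They were taken by symbol from the deposited count table: the ligand genes Csf1, Il34, Csf2 and Csf3, and the receptor genes Csf1r, Csf2ra, Csf2rb, Csf2rb2 and Csf3r. They are 9 of 54532 genes in the table, and all 9 were among the 16471 genes that passed the expression filter. Csf2 and Csf3 passed through the knockout libraries alone, since no wild type library reached the filter's level, so only a difference could have brought them into the test.

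The tissue was newborn mouse epidermis, and 6 RNA-seq libraries were made from it: 3 carry the label Paxbp1 knockout and 3 the label wild type. Library totals lay between 16315317 and 17816327 counts. The sources used here give no strain, allele, Cre line, promoter or number of animals per library, so a p-value speaks only for the spread among these libraries, which may be technical. Paxbp1 itself was at 86.1 ± 20.6 CPM under the wild type label and at 92.5 ± 36.2 under the knockout label (SD, n = 3 each, edgeR adjusted p = 0.783). A total over the gene would miss a deletion of single exons, so it does not check the labels, and all directions below rest on them. CPM is the count scaled to library size with TMM factors.

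Colony-stimulating factors are secreted proteins that control the survival, growth and function of myeloid cells. The receptor tyrosine kinase encoded by Csf1r has a pair of ligands, CSF1 and interleukin-34. Keratinocytes are a main source of interleukin-34 in skin, where it maintains the Langerhans cells of the epidermis. GM-CSF (Csf2) binds an alpha chain (Csf2ra) that pairs with the common beta chain (Csf2rb), which also serves the receptors of interleukin-3 and interleukin-5. G-CSF (Csf3) acts through the homodimer of Csf3r on the neutrophil lineage. The GM-CSF and G-CSF receptors signal through JAK kinases and STAT factors.

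Il34 alone went against the rest of the family. All 5 receptors and the ligands Csf1, Csf2 and Csf3 were higher in the libraries labelled knockout, and Il34 was lower. That is 8 members higher and 1 lower at an edgeR adjusted p under 0.05, and the same genes separated the groups without overlap in CPM. Csf2 and Csf3 are among the 8 but passed the filter through the knockout alone. Their calls in this fit, and their separation, therefore carry no information on direction. Over all 16471 genes tested, 28.7% were called higher and 25.1% lower (53.8% in either direction), and groups did not overlap for 31.9% in the higher and 30.4% in the lower direction. Keratinocyte, macrophage, neutrophil and fibroblast markers differed between the same libraries. Their values follow below, and their part in these results was not tested. In bulk tissue, fewer cells of a type and less RNA per cell cannot be told apart.

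**Figure D1:**
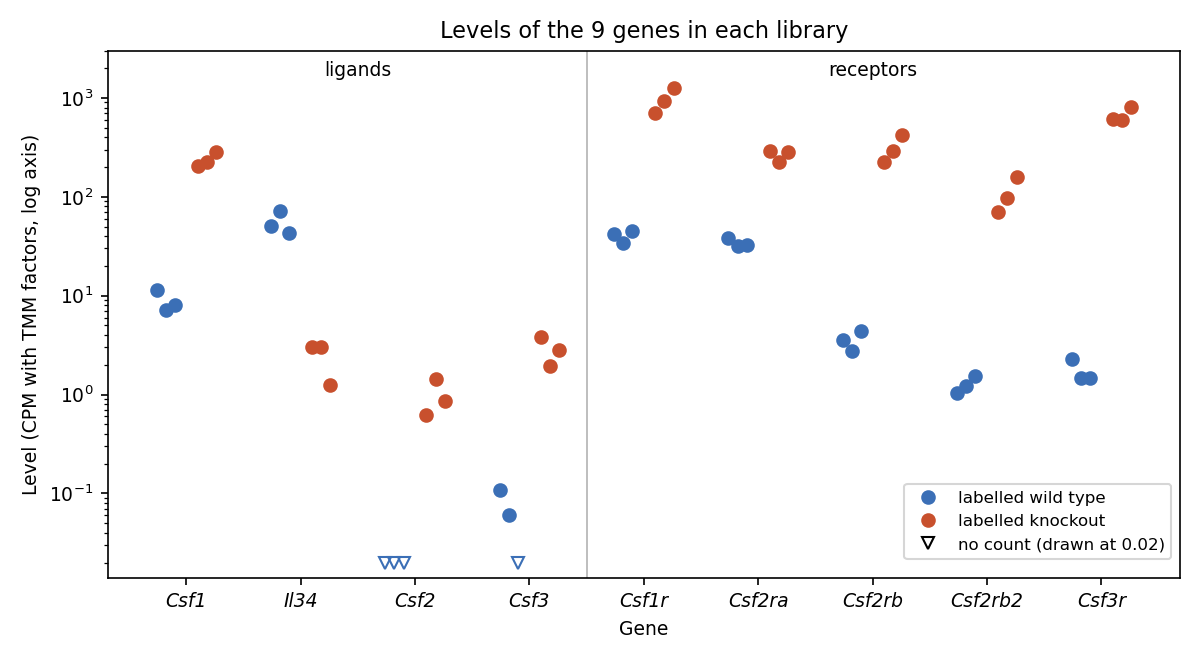
Level of each of the 9 genes in CPM (log axis) in every library, with ligands on the left and receptors on the right. Each point is a library, and open triangles mark libraries with no count. Il34 is the gene whose 3 knockout points lie below its wild type points, and for the other 8 genes they lie above.

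Il34 (ENSMUSG00000031750, chromosome 8, 110741829 to 110805924, minus strand, mm10) stood at 50.9, 72.0 and 43.2 CPM in wild type replicates 1 to 3. In knockout replicates 1 to 3 it stood at 3.00, 3.01 and 1.24 CPM. Each knockout library was far below the lowest wild type library, and knockout replicate 3 was the lowest. The log2 fold change was -4.51 ± 0.37 (SE, edgeR adjusted p = 2.47e-06), and 1.55% of the genes tested had a lower value. The 8 keratinocyte markers, summed, ran from 68553 to 106669 CPM in the wild type and from 4371 to 12038 CPM in the knockout. Of these markers 7 were lower and none higher, against 25.1% lower and 28.7% higher over all genes tested. Their log2 fold changes ran from -6.20 (Krt15) to 0.02 (Dsg3, edgeR adjusted p = 0.967), with a median of -3.07. Il34 had a larger fall than 7 of the 8 markers, and Krt15 alone fell further.

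Csf1 (ENSMUSG00000014599, chromosome 3, 107741048 to 107760469, minus strand) encodes the other ligand of the same receptor. Its level was 11.4, 7.21 and 7.96 CPM in the wild type libraries. In the libraries labelled knockout it was 206, 226 and 287 CPM, so the groups lay far apart and knockout replicate 3 was highest. The log2 fold change was 4.75 ± 0.28 (SE, edgeR adjusted p = 3.41e-07), a 27.0-fold rise.

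Csf1r (ENSMUSG00000024621, chromosome 18, 61105572 to 61132149, plus strand) encodes the receptor of both ligands. It was detected in every wild type library, at 41.6, 34.3 and 44.8 CPM. In the knockout libraries it reached 698, 930 and 1249 CPM. The log2 fold change was 4.57 ± 0.33 (SE, edgeR adjusted p = 1.11e-06), with 6% of the genes tested above it. All 12 macrophage markers were higher as well (11 of them also passed the filter through the wild type group), against 28.7% of all genes tested. Their median log2 fold change was 5.91 and their lowest was 3.60 (Mertk). Their summed level ran from 156 to 171 CPM in the wild type and from 10030 to 18598 CPM in the knockout. Of the knockout sums Mrc1 made up 4429, 6008 and 7753 CPM and Cd163 1999, 3041 and 4346 CPM. Both are named after their values were seen. Cd163 held 1 wild type count and passed the filter through the knockout group alone. Among the knockout libraries Csf1r and the macrophage sum had the same order. The neutrophil, fibroblast, endothelial and mast cell sums had this order too, so it is not particular to macrophage genes. The Langerhans and dendritic cell, eosinophil, T cell and keratinocyte sums did not. Among the wild type libraries Csf1r was highest in replicate 3 and the macrophage sum in replicate 1.

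The ligands of Csf1r were set side by side per length, on the deposited FPKM values (counts over gene length and a constant for each library). The Il34 level was 12, 26.9 and 14.6 times the Csf1 level in wild type replicates 1 to 3. In the knockout libraries the ratio of Il34 to Csf1 was 0.0394, 0.0359 and 0.0116. Il34 thus made up 94.1% ± 2.09 of the summed ligand FPKM in the wild type and 2.80% ± 1.44 in the knockout (SD, n = 3 each). Summed, both ligands came to 29.2 ± 7.53 FPKM and, in the knockout, to 46.4 ± 7.91 FPKM. The mean log2 ratio went from 4.07 to -5.30, a difference of -9.37. The exact two-sided permutation test gave p = 0.1, the smallest that 3 against 3 libraries allow. The ratio does not depend on library scaling, since both genes are read in the same library.

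**Figure D2:**
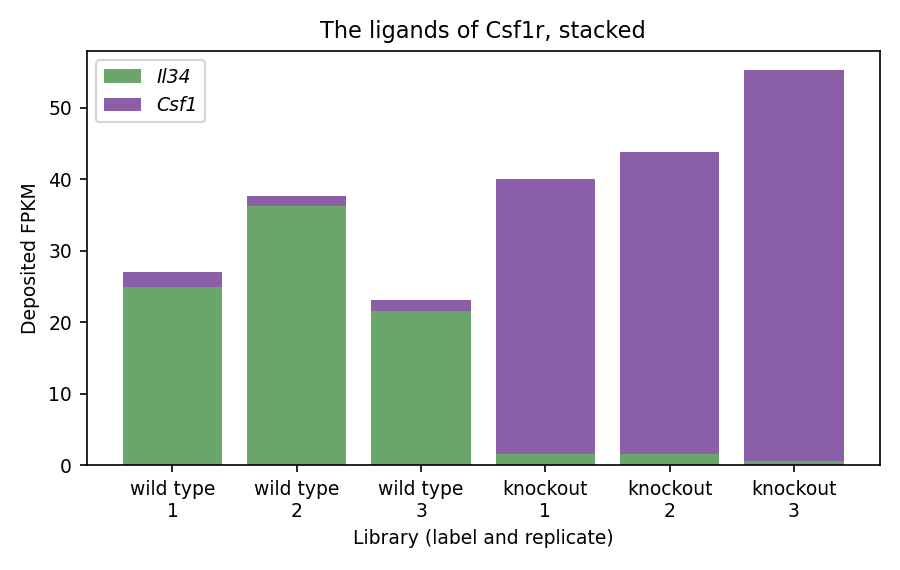
Deposited FPKM of Il34 (green) and Csf1 (purple) in each library, stacked so that the bar height is their sum. Il34 fills 92.3% to 96.4% of the bar under the wild type label and 1.15% to 3.79% under the knockout label.

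Csf2 (ENSMUSG00000018916, chromosome 11, 54247271 to 54249667, minus strand), the gene of GM-CSF, had no count in any wild type library. With 3 counts per library as the limit that a count of 0 allows, its level there was at most 0.164, 0.183 and 0.159 CPM. The knockout libraries held 11, 22 and 14 counts, or 0.623, 1.44 and 0.867 CPM. With the knockout counts taken as exact, the rise was at least 17.1-fold against a floor of 3 counts over the wild type group (edgeR adjusted p = 0.000924). Csf2 remained a scarce transcript in every library, and the floor covers counting error of the wild type counts only.

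The receptor chains for GM-CSF rose by different amounts. Csf2ra (ENSMUSG00000059326, chromosome 19, 61224402 to 61228418, minus strand), the ligand-binding chain, stood at 38.0, 31.9 and 32.4 CPM in the wild type. It reached 288, 225 and 284 CPM in the knockout libraries. Its log2 fold change of 2.96 ± 0.23 (SE, edgeR adjusted p = 1.63e-06) was the smallest of the 8 rises, and 10.7% of the genes tested lay above it.

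Csf2rb (ENSMUSG00000071713, chromosome 15, 78325752 to 78353847, plus strand), the common beta chain, stood at 3.55, 2.75 and 4.4 CPM in the wild type. In the knockout libraries it was at 224, 288 and 422 CPM. Its log2 fold change was 6.44 ± 0.35 (SE, edgeR adjusted p = 2.26e-07). Per length, Csf2ra exceeded Csf2rb by 42.1, 45.6 and 28.9 times in the wild type libraries and by 5.06, 3.08 and 2.65 times in the knockout libraries. The alpha chain was therefore the higher of the pair in all 6 libraries, with a smaller excess in each knockout library than in any wild type library. This ratio was chosen after the values were seen and was not tested.

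Csf2rb2 (ENSMUSG00000071714, chromosome 15, 78282507 to 78305721, minus strand) is a mouse paralogue of Csf2rb that serves interleukin-3 alone. The pair lies side by side with 20030 bases between the deposited gene models, on opposite strands. Csf2rb2 stood at 1.04, 1.22 and 1.54 CPM in the wild type and at 70.3, 96.2 and 157 CPM in the knockout libraries. Its log2 fold change was 6.40 ± 0.38 (SE, edgeR adjusted p = 3.41e-07), close to that of Csf2rb. Per length, Csf2rb was 1.85 ± 0.38 times Csf2rb2 in the wild type and 1.93 ± 0.16 times in the knockout (SD, n = 3 each), and these ranges overlap.

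The similarity of the paralogues bears on how their reads can be assigned, so the start of both coding sequences is shown, from GENCODE vM21 transcripts on GRCm38. Capitals mark the bases at which they differ. The first 120 bases lie at chr15:78335207-78336379 (plus strand) for Csf2rb and at chr15:78297071-78298229 (minus strand) for Csf2rb2, with introns left out.
Csf2rb: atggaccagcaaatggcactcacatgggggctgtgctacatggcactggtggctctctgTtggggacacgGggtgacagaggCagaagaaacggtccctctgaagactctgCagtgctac
Csf2rb2: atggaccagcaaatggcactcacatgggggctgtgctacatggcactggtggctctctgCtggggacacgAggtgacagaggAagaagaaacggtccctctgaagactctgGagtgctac
They differ at 4 of these 120 positions. Over the whole coding sequences, of 2688 and 2634 bases, 95.2% of the aligned positions without a gap were identical. Of the windows of 100 bases in the Csf2rb coding sequence, 11.0% occur without a mismatch in Csf2rb2, and of those of 50 bases 26.0%. Neither the read length nor the treatment of reads with several matches is stated, so the split of counts between these genes is uncertain.

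Csf3 (ENSMUSG00000038067, chromosome 11, 98701263 to 98703629, plus strand), the gene of G-CSF, had 2, 1 and 0 counts in wild type replicates 1 to 3. The knockout libraries held 67, 30 and 46 counts, or 3.79, 1.96 and 2.85 CPM. Every knockout library was above every wild type library. The ratio of the group sums was 52.0, with an exact 95% counting interval of 17.4 to 255 (edgeR adjusted p = 0.000106). The fitted log2 fold change of 5.50 became 6.33 without wild type replicate 1, which held 2 of the 3 wild type counts, and 4.96 without wild type replicate 3.

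Csf3r (ENSMUSG00000028859, chromosome 4, 126024550 to 126044440, plus strand) changed most of the 6 members that rose from more than 3 wild type counts. It stood at 2.29, 1.47 and 1.49 CPM in the wild type and at 618, 599 and 807 CPM in the knockout libraries. The log2 fold change was 8.58 ± 0.37 (SE, edgeR adjusted p = 1.65e-07), a 384-fold rise, and 1.09% of the genes tested lay above it. Csf1r was 17.7 ± 4.45 times Csf3r per length in the wild type and 1.04 ± 0.18 times in the knockout (SD, n = 3 each), a ratio chosen after the values were seen and not tested. Of the 10 neutrophil markers 6 passed the filter, all through the knockout group alone, so their calls carry no information on direction. The summed level of the list ran from 0.428 to 0.818 CPM in the wild type and from 433 to 1234 CPM in the knockout. The granule genes Mpo and Elane, which mark immature neutrophils, held 1 count each over the wild type group and 31 and 19 counts over the knockout group, and 16 of the 19 Elane counts were in knockout replicate 1.

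The promoters of the members were read for motifs, and their regulation was not tested. RefSeq's table for GRCm38.p6 held a promoter for 5 of the 9 members (Csf1, Csf2, Csf2ra, Csf2rb2 and Csf3r), and the 250 bases before the start site were searched on both strands. GAGGAA, a core that the myeloid factor PU.1 binds, occurred in 3 of the 5 and in 23.3% of 32851 promoters of the same length. These 3 were all the receptor genes that could be searched, since Csf1r and Csf2rb had no promoter in the RefSeq table. This split by role was made after the matches were seen and was not tested. A general pattern of NF-kappaB sites, GGG and CC with 5 bases of any kind between them, occurred in Csf1, Csf2ra and Csf3r and in 45.8% of all promoters. The AP-1 pattern TGANTCA occurred in none of the 5 and in 6.75% of all promoters. The Csf2 window, chr11:54249900-54250149 (minus strand), lies upstream of the deposited gene model, which ends at 54249667. The bases between them were not searched, so the lack of matches for Csf2 holds for the RefSeq start site only. No GAGGAA match shared a base with an NF-kappaB match in these promoters. A match is a description of letters and not a binding site.

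The matching windows are shown with the GAGGAA match, or its reverse complement, in capitals. They are chr19:61228419-61228668 for Csf2ra and chr15:78305722-78305971 for Csf2rb2, both on the minus strand and written 5′ to 3′ along the gene, and 30 bases at chr4:126024561-126024590 (plus strand) for Csf3r. The Csf3r match lies inside the deposited gene model, which starts before the RefSeq start site.
Csf2ra: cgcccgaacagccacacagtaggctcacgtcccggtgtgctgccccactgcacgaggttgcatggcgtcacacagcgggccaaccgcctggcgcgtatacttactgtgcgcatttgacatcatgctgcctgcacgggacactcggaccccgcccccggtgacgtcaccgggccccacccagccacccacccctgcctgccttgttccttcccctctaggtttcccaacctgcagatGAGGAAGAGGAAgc
Csf2rb2: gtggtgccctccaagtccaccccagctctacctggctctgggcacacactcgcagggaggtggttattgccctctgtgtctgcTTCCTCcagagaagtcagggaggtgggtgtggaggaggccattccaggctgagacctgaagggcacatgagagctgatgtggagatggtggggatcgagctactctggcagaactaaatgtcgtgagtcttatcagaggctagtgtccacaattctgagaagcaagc
Csf3r: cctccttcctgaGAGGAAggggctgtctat
Csf2ra held 2 adjoining matches, which begin 14 and 8 bases before its start site. The single matches of Csf2rb2 and Csf3r begin 167 and 86 bases before theirs.

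The order of the levels per length changed between the groups. In the wild type Il34 was highest at 27.6 ± 7.70 FPKM, followed by Csf2ra at 18 ± 1.51, Csf1r at 8.04 ± 1.04 and Csf1 at 1.63 ± 0.38 FPKM (SD, n = 3 each). These 4 did not overlap with their neighbours in the order. Csf2rb (0.478 ± 0.110) and Csf3r (0.471 ± 0.119) overlapped with each other, Csf2rb2 followed at 0.261 ± 0.054, and Csf3 and Csf2 came last. In the knockout Csf1r (195 ± 58.0 FPKM) and Csf3r (186 ± 33.5 FPKM) were highest and overlapped, and Csf2ra followed at 143 ± 19.6 FPKM. Csf1 (45.1 ± 8.4) overlapped with Csf2rb (42.6 ± 14.2), and Csf2rb with Csf2rb2 (22.7 ± 9.55), which did not overlap with Csf3. Csf3 (2.02 ± 0.64), Il34 (1.22 ± 0.51) and Csf2 (1.21 ± 0.51 FPKM) formed the lowest 3, again with overlap between neighbours.

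**Figure D3:**
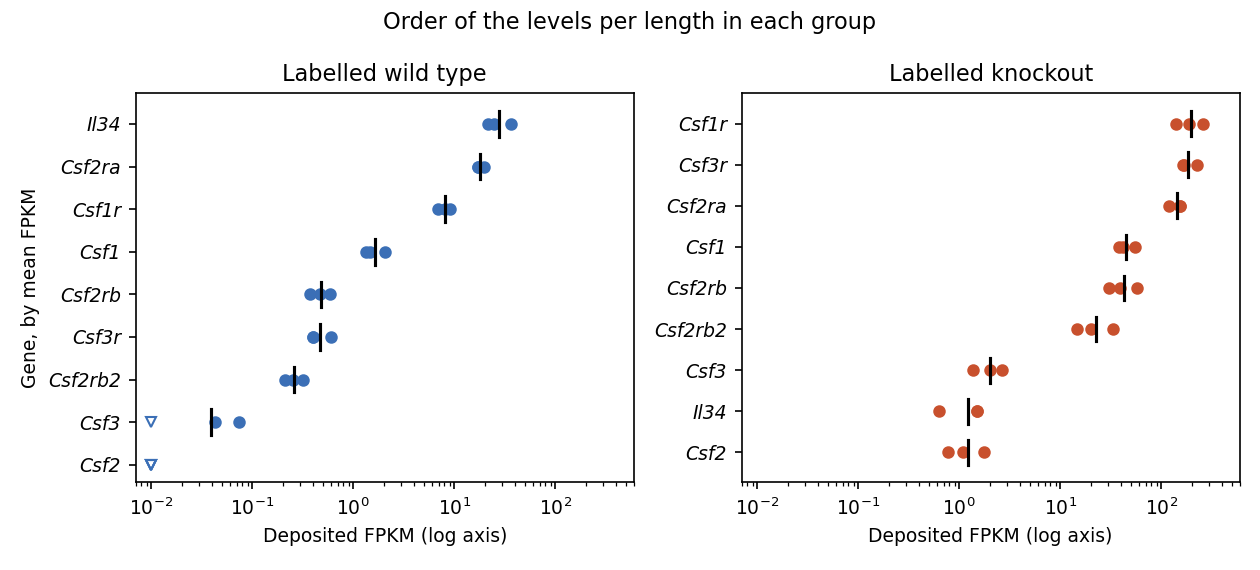
Deposited FPKM (log axis) of the 9 genes in each library, ordered by the group mean, for the libraries labelled wild type (left) and knockout (right). Points are libraries, black lines are means and open triangles at the left edge stand for FPKM of 0. Il34 moves from the top of the wild type order to the lowest 3 of the knockout order.

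Related ligands and receptors did not all follow the family. Of 12 genes 9 passed the filter. Of these 5 were higher and 3 lower, against 28.7% and 25.1% over all genes tested. The median log2 fold change was 1.93, against -0.029 over all genes tested. Flt3, one of the 5, passed through the knockout group alone. Trem2, a myeloid receptor that signals with Tyrobp, rose from 3.49 ± 0.98 to 203 ± 48.4 CPM (edgeR adjusted p = 2.25e-07). Il3ra, the alpha chain of the interleukin-3 receptor, rose from 5.65 ± 0.69 to 34.9 ± 3.60 CPM (edgeR adjusted p = 3.97e-06). Il3 and Il5, whose receptors also use Csf2rb, had no count in any of the 6 libraries. Kitl, the ligand of the related receptor Kit, fell from 58.1 ± 6.59 to 12.8 ± 0.70 CPM (edgeR adjusted p = 7.05e-06). Syndecan-1 (Sdc1) and Ptprz1 encode other cell surface partners of interleukin-34, and they are named here after their values were seen. Sdc1 fell from 323 ± 47.4 to 170 ± 50.7 CPM (edgeR adjusted p = 0.0152), and was not called without knockout replicate 3 (0.0544) or wild type replicate 2 (0.0594). Ptprz1 was at 68.2 ± 13.5 and 78.5 ± 74.9 CPM (edgeR adjusted p = 0.764), and was called lower without knockout replicate 1 (log2 fold change -0.94, adjusted p = 0.00744).

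Of 21 adaptors and effectors of Csf1r 18 were higher and none was lower, against 28.7% and 25.1% over all genes tested. The median log2 fold change was 4.24. Dok2, a docking protein of myeloid kinase signalling, rose from 3.77 ± 0.52 to 179 ± 28.2 CPM (edgeR adjusted p = 1.73e-07). The Src family kinase gene Fgr rose from 0.578 ± 0.262 to 134 ± 37.9 CPM (edgeR adjusted p = 1.96e-07), and it passed the filter through the knockout group alone. Pik3r1, Sos1 and Shc1 were the 3 that were not called, named here after their values were seen, with log2 fold changes of -0.28, 0.13 and 0.40. Many genes of this list are leukocyte genes, and the macrophage sums given above differ between the same groups.

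Of 14 genes of the JAK and STAT relay 10 were higher and 1 lower, against 28.7% and 25.1% over all genes tested. The median log2 fold change was 1.07. Socs3, a feedback inhibitor of G-CSF receptor signalling, rose from 28.1 ± 4.72 to 387 ± 33.1 CPM (edgeR adjusted p = 5.94e-07). Jak2, the kinase bound by the common beta chain, rose from 36.2 ± 5.38 to 589 ± 93.0 CPM (edgeR adjusted p = 7.88e-07). Cish, a target and inhibitor of STAT5, was lower at 28.4 ± 6.44 CPM, against 45.1 ± 2.96 CPM (-0.67 on the log2 scale, edgeR adjusted p = 0.0240). Cish was not called when knockout replicate 2 or 3 or any 1 wild type library was left out (adjusted p from 0.0633 to 0.0810). Stat5a rose from 22.0 ± 0.42 to 52.5 ± 7.81 CPM, chosen for its place in this relay after its values were seen. Stat5b (0.66 ± 0.25 on the log2 scale, edgeR adjusted p = 0.0464) was not called with upper-quartile or library-size scaling, with limma on log2(FPKM + 1), or when knockout replicate 3 or any 1 library of the wild type was left out (adjusted p from 0.0524 to 0.194).

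Of 13 myeloid transcription factor genes 12 passed the filter. Of these 8 were higher and 2 lower, against 28.7% and 25.1% over all genes tested. The median log2 fold change was 1.22. Cebpe, one of the 8, passed through the knockout group alone. Spi1, which encodes PU.1, rose from 8.74 ± 2.27 to 407 ± 104 CPM (edgeR adjusted p = 4.05e-07). Maf rose from 47.6 ± 3.24 to 1218 ± 139 CPM (edgeR adjusted p = 4.43e-07). Cebpa, which keratinocytes also express, fell from 421 ± 74.4 to 176 ± 22.1 CPM (edgeR adjusted p = 0.00123).

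**Figure D4:**
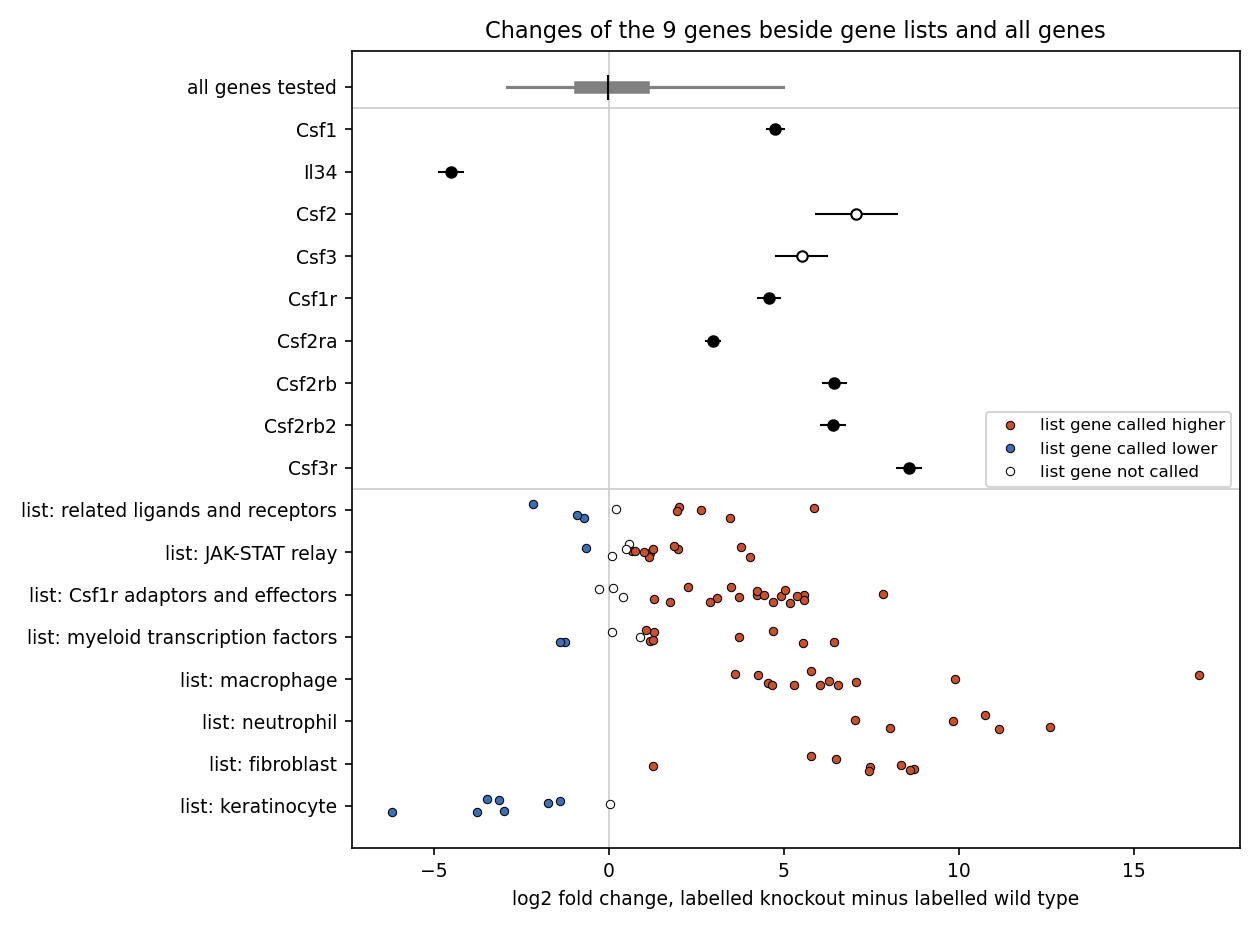
Log2 fold change of each of the 9 genes (± SE), of the genes in 4 pathway lists and 4 marker lists, and of all genes tested (grey line from the 5th to the 95th percentile, thick part from the 25th to the 75th, tick at the median of -0.029). Red and blue points are list genes called higher and lower, and white points were not called. Open symbols among the 9 genes have at most 3 wild type counts, where the fitted value depends on the prior count. Il34 (-4.51) lies below 7 of the 8 keratinocyte markers, and Csf2ra (2.96) has the smallest of the 8 rises.

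Markers were read for each cell type the tissue could hold, with summed levels as ranges over the 3 libraries of a group. A marker that passed the filter through 1 group alone had to differ, so such markers are counted apart. Over all genes tested 28.7% were called higher and 25.1% lower. The keratinocyte genes that define the tissue, Krt5, Krt14 and Trp63, were present in all libraries and lower in the knockout (log2 fold changes -3.0, -1.41 and -3.13). The macrophage genes Adgre1, Cd68 and C1qa rose by 6.04, 5.29 and 4.54 on the log2 scale. Cd207, which defines Langerhans cells, had no count in the wild type and 8 counts over the knockout group. In the Langerhans and dendritic cell list 7 of 8 tested genes were higher, 2 of them having passed through the knockout alone. The list summed to 34.6 to 41.1 CPM against 185 to 320 CPM. Of the knockout sums Cd74, named after its values were seen, made up 99.4, 204 and 163 CPM. Xcr1 was the tested gene not called (log2 fold change -0.28, edgeR adjusted p = 0.781). Ly6g, a neutrophil gene, had no wild type count and 57 knockout counts. All 8 fibroblast genes were higher, 3 of them having passed through the knockout alone (250 to 260 CPM against 3656 to 9536 CPM). Of the wild type sums Dcn, named after its values were seen, made up 168, 225 and 234 CPM. The log2 fold change of Dcn was 1.26. Col1a1 stood at 7.82 ± 10.8 and 2548 ± 1226 CPM and Pdgfra at 0.456 ± 0.645 and 81.8 ± 47.6 CPM. Of the 4 tested endothelial genes 3 passed through the knockout alone (the list summed to 1.22 to 4.42 CPM against 194 to 365 CPM). Pecam1, at 1.20 ± 0.40 and 251 ± 84.1 CPM, made up 166, 252 and 334 CPM of the knockout sums. Cdh5 was at 0.0182 ± 0.0315 and 7.15 ± 2.90 CPM. Tek and Emcn, named after their values were seen, did not pass the filter. They held 24 and 0 counts over the wild type group and 22 and 5 over the knockout group.

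The 4 tested mast cell genes and the 2 tested eosinophil genes all passed through the knockout alone, so their calls carry no information on direction. The mast cell list summed to 0.318 to 1.69 CPM in the wild type and 78.9 to 127 CPM in the knockout. Of the knockout sums Hdc, the histamine-forming enzyme, named after its values were seen, made up 67.3, 94.4 and 116 CPM, and the defining genes Cpa3 and Mcpt4 reached only 2.20 ± 0.09 and 0.678 ± 0.721 CPM in the knockout. The eosinophil list summed to 0.382 to 1.22 CPM against 15.1 to 26.5 CPM, while its defining granule genes Epx and Prg2 held 3 and 30 counts over the wild type group and 0 and 5 over the knockout group. Of 6 T cell genes 1 was higher and 2 were lower, against 28.7% and 25.1% over all genes tested. Of the 6, 1 passed through the knockout alone and 3 through the wild type alone. The T cell list summed to 10.7 to 30.9 CPM against 10.4 to 18.2 CPM. Cd3e was at 2.54 ± 1.54 and 0.440 ± 0.345 CPM and Trdc at 2.33 ± 0.60 and 1.09 ± 0.84 CPM.

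The genes nearest in pattern were found by the distance between centred log2 CPM values over the 6 libraries (prior count 2, protein-coding genes outside the family). For Csf1r they were Sp100 (3.30 ± 0.67 to 79.2 ± 22.3 CPM), Elk3 (5.40 ± 0.42 to 120 ± 28.7 CPM) and Il13, at distances of 0.237, 0.271 and 0.285. Il13, a type 2 cytokine gene, had no wild type count and 133 knockout counts, and its likeness depends on the prior count. With the knockout counts taken as exact, Il13 was at least 48.3-fold higher against the floor of 3 counts over the group. For Il34 they were Rnase1 (34.4 ± 9.12 to 1.46 ± 0.52 CPM), the acute-phase gene Orm1 (47.1 ± 16.1 to 1.97 ± 0.74 CPM) and the epidermal phospholipase gene Pla2g2f (619 ± 110 to 29 ± 12.9 CPM). Their distances were 0.335, 0.456 and 0.462.

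Genes that overlap the members were counted beside them. Without a stated strand setting, reads of a gene and its antisense partner cannot be told apart. The antisense genes Gm15894 and Gm15895 overlap Il34 and held 32 and 17 counts over the wild type group, against 2924 for Il34, and 0 and 2 over the knockout group, against 119. Gm12223 overlaps Csf2 and held no wild type count and 3 knockout counts, against 47 for Csf2. Hmgxb3 overlaps the end of Csf1r by 871 bases on the other strand, with 1472 wild type and 1564 knockout counts (edgeR adjusted p = 0.616), against 2169 and 46718 for Csf1r.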

How the data were processed

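RNA-seq was read from tables of 6 libraries of newborn mouse epidermis. HISAT2 2.0.5, featureCounts 1.5.0-p3 and mm10 come from the submitters' processing notes, without parameters. The authors deposited whole-number read counts per gene and FPKM values. Each deposited FPKM equals the count over gene length and a library constant that is not the sum of the counts. Per the file headers, gene lengths and positions are the authors'.

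From the counts, edgeR 4.0.16 (R 4.3.3) was fitted to all 6 libraries with TMM scaling, filterByExpr at a minimum count of 10 and total of 15, and robust quasi-likelihood tests on genotype, with Benjamini-Hochberg adjustment over 16471 genes. At least 99.7% of the counts of each library lay in these genes. SE values divide the log2 fold change by the root of F. The test was checked on simulated data. Intervals and floors cover counting error only. FPKM served for levels between genes and for limma 3.58.1 fits.

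The members and lists were chosen with earlier results of these data known. Named genes were the members, the 2 genes with the smallest adjusted p in the main direction of each pathway list and 1 in the other, the defining markers, and the 3 genes nearest to Csf1r and to Il34. Others are marked in the text or shown as range ends or exceptions. Alternatives were other scalings and filters, DESeq2 1.42.0, limma on FPKM, a replicate block and libraries left out.

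Replicate numbers come from the titles. Deviations from group means correlated at 0.23, 0.34 and 0.18 for the same number and at -0.32 to 0.07 otherwise, so the numbers were read as a possible pairing, although the labels do not say what they mark. Libraries of a group differed by more than sampling noise (chi-square over degrees of freedom 29.8 to 80.5).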

Additional observations from a re-analysis of the deposited data

How the results depend on the processing

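All 143 fold changes of members under the 16 alternatives kept their direction and their call, the 6 fits without 1 library and the fit without both libraries numbered 1 included. These include Csf2 and Csf3, which passed the main filter through the knockout libraries alone. A filter of 1 CPM in 3 libraries removed Csf2 and left 7 members higher, and the other alternatives gave 8 higher and 1 lower. With the replicate block 8 members were higher and 1 lower (Il34 at -4.55, edgeR adjusted p = 7.74e-07), and among the pathway list genes it changed the call of Jak1 alone (adjusted p = 0.0222, against 0.0648 without the block). On log2(FPKM + 1), where the pseudocount compresses low levels, Csf2 was at 1.12, Csf3 at 1.52, Csf2rb2 at 4.15 and Il34 at -3.68. The median log2 fold change over all genes was -0.22 with upper-quartile and -0.18 with library-size scaling, against -0.029. On leaving out each library in turn, the lower genes of the JAK and STAT relay numbered 0 to 1. The log2 difference of the Il34 to Csf1 ratio then ran from -9.68 to -8.80. Paired by number, its exact two-sided permutation p was 0.25, the smallest that 3 pairs allow. With 0 wild type counts for Csf2 and 3 for Csf3, depth limits the size of their rise.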
